A study of Mus musculus with 12 samples.

Results

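The 9 genes described here encode transcription factors that pattern the embryonic lung and stay expressed in the adult organ: the T-box factors Tbx2, Tbx3, Tbx4 and Tbx5, the forkhead factors Foxf1, Foxa1 and Foxa2, the homeodomain factor Nkx2-1 and the GATA factor Gata6. They were taken by gene name from a table of 56980 genes, and all 9 were among the 17827 genes tested. The list of names was drawn up with earlier results of these data known. Expression was measured by polyadenylated RNA sequencing of whole lung from male C57BL/6 mice aged 6 to 8 weeks, with 4 libraries in each of 3 groups. Control mice received distilled water in the volume of the granules. Model mice were instilled once through the trachea with bleomycin at 5 mg/kg, a drug used to produce pulmonary fibrosis, and received the same water. HBG mice had the same instillation and Huashibaidu granules, a herbal preparation, by mouth at 7 g/kg, a dose the sample descriptions give as an example. The endpoint was day 28 in all 3 groups. The series description places the first granule dose 1 week ahead of bleomycin and the end on day 28, while the sample descriptions give 14 days of dosing from day 7. No source used here states what Control mice received in the trachea or whether each library is a separate animal. The p-values therefore measure the spread between libraries, which may be technical.

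Nkx2-1 marks the foregut cells that become lung and thyroid, and in the adult it drives surfactant and secretoglobin genes together with Foxa1 and Foxa2, the forkhead factors of the airway and alveolar epithelium. Tbx4 and Tbx5 act in the lung mesenchyme, where they support Fgf10 signalling and branching, and Tbx2 and Tbx3 are the related repressors of the same mesenchyme that keep it proliferating. Foxf1 is a target of hedgehog signalling that builds mesenchyme and capillary endothelium, and Gata6 acts in epithelium, smooth muscle and endothelium. Several of these factors also work outside the lung, Tbx5 and Gata6 in the heart among them.

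Library totals lay between 17979863 and 27150787 estimated counts. Each member had between 365 and 8646 counts in a library, so counting error was at most 5.23% of a value and the spread between libraries was larger. Lung identity was plain in the secretory genes, with the club cell secretoglobin Scgb1a1 at 48159 ± 8640 CPM (counts scaled by library size, SD, n = 4) in Control. Marker lists showed that tissue makeup varied between libraries of 1 group: HBG 1 had the lowest score of capillary endothelial markers (-1.16, the mean log2 CPM of the list relative to the mean library) and HBG 3 the highest (0.80), and the pan-epithelial score ran the other way, at 0.63 and -0.87. The cardiac muscle score ranged from -2.36 in Model 3 to 2.11 in Control 2. In bulk tissue, fewer cells of a type and less RNA per cell cannot be told apart.

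**Figure D1:**
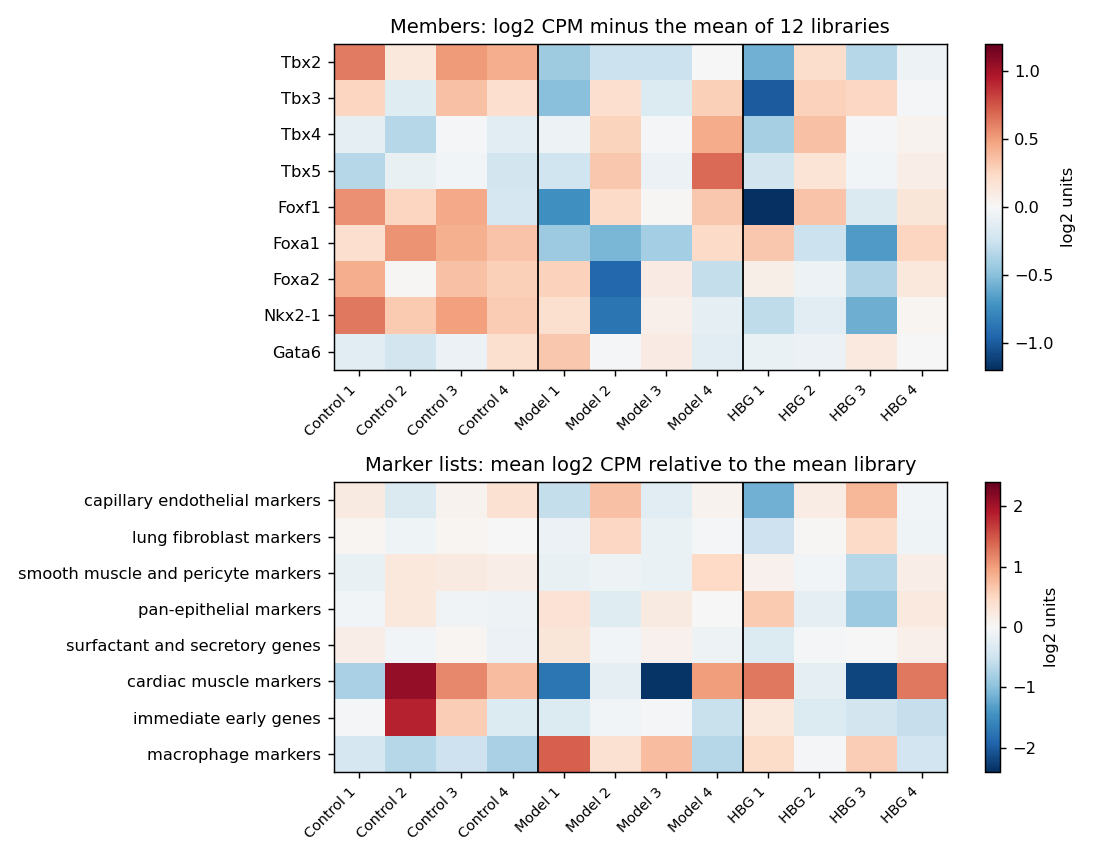
Colour shows log2 CPM of each factor minus its mean over the 12 libraries (upper panel) and the score of each marker list (lower panel, a wider colour scale), with libraries in columns and lines between the groups. Nkx2-1 is higher in each Control library than in the other 8 libraries, while Foxf1 and Tbx3 are lowest in HBG 1, the library with the lowest capillary endothelial score of -1.16.

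In Control lung the most abundant factor per length was Foxf1, at 124 ± 26.4 CPM per kilobase of the deposited gene length (SD, n = 4). Nkx2-1 followed at 82.8 ± 9.09 and Tbx2 at 63.8 ± 9.05 CPM per kilobase. The ranges of Foxf1 and Nkx2-1 overlapped, and those of Nkx2-1 and Tbx2 did not. Below a gap came 4 factors whose neighbours overlapped in turn, with Tbx3 at 24.3 ± 3.44, Foxa1 at 21.6 ± 2.10, Foxa2 at 20.6 ± 2.50 and Tbx4 at 19.8 ± 1.81 CPM per kilobase. Gata6 at 10.3 ± 1.31 and Tbx5 at 9.77 ± 0.90 closed the order and overlapped each other, both under every Tbx4 library. In Model and in HBG the same 3 genes led, but Tbx4 took the fourth place, at 24.6 ± 4.19 and 22.2 ± 4.68 CPM per kilobase, ahead of Tbx3 at 21.3 ± 5.06 and 20.8 ± 7.06. The ranges of Tbx4 and Tbx3 overlapped in both. Over all 12 libraries the means of Tbx4 and Tbx3 were 22.2 and 22.1 CPM per kilobase.

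The comparison of Model with Control asked how bleomycin altered lung expression. Of the 9 factors, 6 had lower and 3 higher means in Model, with a median log2 fold change of -0.28 against 0.01 over all genes tested. None of the 9 passed edgeR's quasi-likelihood test at an adjusted p of 0.05 over all genes, where 0.348% of genes passed. Tbx2, Foxa1 and Nkx2-1 had an unadjusted p under 0.05, 3 of 9 against 11.7% of all genes. Other tools called more genes: DESeq2 called 1 member, Tbx2 (2.29% of all genes), and limma-voom with sample quality weights called 2, Tbx2 and Foxa1 (6.05%). The Model and Control libraries did not overlap for Tbx2 and Nkx2-1, both lower in Model, and for Tbx2 they did overlap once GC content and gene length were corrected for. Of all genes 8.71% were separated in this comparison, 4.51% lower and 4.2% higher, and 0 members were separated upwards. HBG against Control gave 0 members past the threshold (0.151% of all genes), also with DESeq2 and limma-voom (0.976% and 0.567%), and 2 members, Tbx2 and Nkx2-1, at an unadjusted p under 0.05 (8.25%). Only Nkx2-1 was separated there, lower in HBG, against 3.92% of all genes lower and 6.33% in either direction. The Model and HBG comparisons with Control share the same 4 Control libraries.

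**Figure D2:**
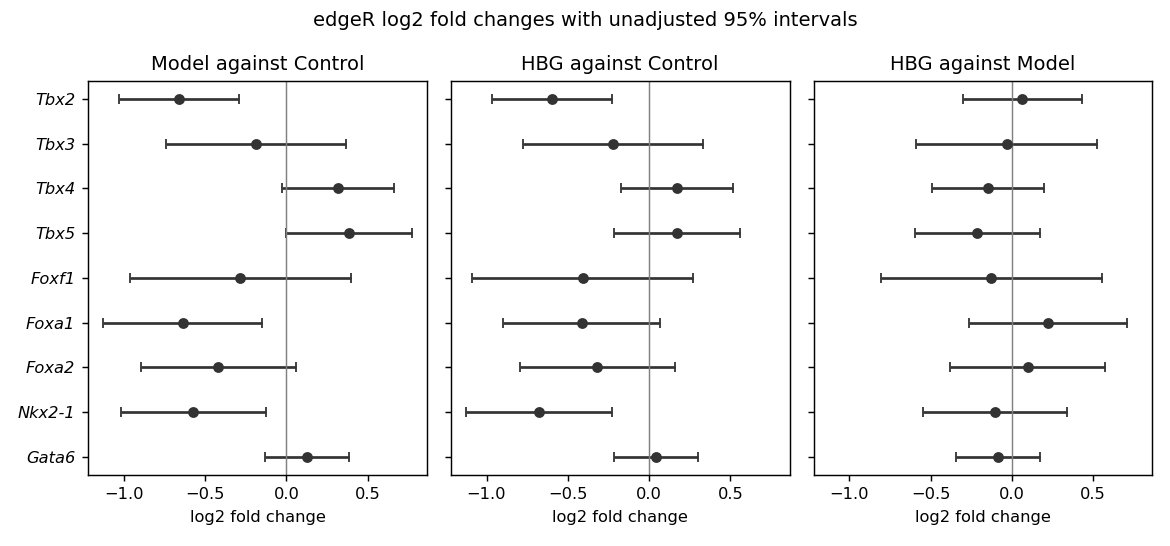
Points are edgeR log2 fold changes of the 9 factors and bars their unadjusted 95% intervals, for Model against Control, HBG against Control and HBG against Model. In Model against Control the intervals of Tbx2 (-1.03 to -0.29), Foxa1 (-1.12 to -0.15) and Nkx2-1 (-1.02 to -0.13) lie below 0, and in HBG against Model all 9 include 0.

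Among the T-box factors, Tbx2 (ENSMUSG00000000093), a mesenchymal repressor, differed most. It had 264, 186, 244 and 230.5 CPM in Control 1 to 4, 127, 143, 143 and 172 CPM in Model 1 to 4, and 115, 198, 135 and 164 CPM in HBG 1 to 4. All 4 Model libraries lay below the lowest Control library, and 3 of 4 HBG libraries did, HBG 2 being the exception. The Model level was 0.632-fold of Control, which is -0.66 ± 0.17 on the log2 scale (SE, adjusted p = 0.158 by edgeR). DESeq2 gave an adjusted p of 0.0224 and limma-voom 0.0116 for the same contrast, and over all 22 alternatives the adjusted p ran from 0.0116 to 0.441. The transcripts of Tbx2 are 63.2% G and C, more than in 99.3% of the genes tested, and all 9 factors lie above the median of tested genes, 50.3%. When trends with GC content and gene length were taken out of each library, Tbx2 stood at -0.39 on the log2 scale (edgeR adjusted p = 0.441), the largest move of the 9. The separation was lost: corrected values of Control 2 and Model 4 were 160.4 and 178 CPM, and only HBG 1 (115 CPM) of the HBG libraries lay below Control 2.

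Tbx3 (ENSMUSG00000018604), the paralogue of Tbx2, showed no such separation. Its levels were 125, 94.2, 133 and 119.6 CPM in Control, 73.8, 119.5, 93.3 and 127 in Model, and 52.3, 126, 124 and 102.5 in HBG. Model and Control overlapped, and the low values were those of Model 1 and HBG 1. The log2 fold change in Model was -0.19 ± 0.25 (SE, adjusted p = 0.819 by edgeR), with -0.06 when Model 1 was left out and -0.39 by limma-voom. Deposited counts of Tbx3 were not whole in all 12 libraries, which can arise where reads are shared with another gene, and the antisense gene Tbx3os1 was counted at 4.43 ± 1.30 CPM in Control and 4.52 ± 1.48 in Model. Whether counting used the strand is not stated.

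The mesenchymal activators Tbx4 (ENSMUSG00000000094) and Tbx5 (ENSMUSG00000018263) had higher means in Model. Tbx4 was at 61.3, 51.9, 64.8 and 60.1 CPM in Control, 63.1, 79.3, 64.8 and 89.7 in Model, and 49.99, 84.4, 65.5 and 68.0 in HBG. Of the Model libraries, 2 and 4 stood above every Control library and 1 and 3 lay within the Control range, while HBG 2, 3 and 4 were above every Control library and HBG 1 below. Its log2 fold change was 0.32 ± 0.16 (SE, adjusted p = 0.471 by edgeR), and limma-voom gave 0.15. Tbx5 had 34.2, 40.6, 42.1 and 37.1 CPM in Control, 36.5, 54.1, 41.2 and 69.2 in Model, and 37.2, 48.5, 42.2 and 45.5 in HBG. Again Model 2 and Model 4 were the high libraries, and the log2 fold change was 0.38 ± 0.18 (SE, adjusted p = 0.430 by edgeR). It was 0.19 without Model 4 and 0.15 with limma-voom. Model 4 also had the highest cardiac muscle score of its group, at 1.01. Over the 21 of 22 cardiac markers that were tested, the summed CPM were 959 to 6481 (Control), 383 to 3636 (Model) and 373 to 3826 (HBG), all 21 had lower means in Model, and the cardiac factor Nkx2-5 was at 0 in at least 1 Model library. Control 2, with the highest cardiac score of 2.11, had 40.6 CPM of Tbx5, within the range of the other Control libraries. The part of cardiac tissue in the Tbx5 values was not tested.

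The T-box genes lie in pairs, Tbx2 beside Tbx4 and Tbx3 beside Tbx5, with 0 protein-coding genes between the partners in the RefSeq annotation of GRCm38.p6. Ratios between partners within a library, added after the data were seen, do not depend on scaling between libraries. The ratio of Tbx2 to Tbx4 in CPM was 4.30, 3.59, 3.77 and 3.83 in Control, 2.02, 1.80, 2.21 and 1.92 in Model, and 2.30, 2.35, 2.06 and 2.41 in HBG. All 8 libraries from bleomycin-treated mice lay below all 4 Control libraries. The mean ratio was 3.87 ± 0.30 in Control, 1.99 ± 0.17 in Model and 2.28 ± 0.15 in HBG (SD, n = 4 each). Of all genes with counts in every library, 15.3% had a ratio to Tbx4 that was lower in every Model library than in every Control library, and 4.24% had one for HBG, so a separated ratio was not rare when Tbx4 is the denominator. After the GC and length correction the ratio was 3.08 to 3.70 (Control), 2.01 to 2.29 (Model) and 2.42 to 2.49 (HBG). These 3 ranges did not overlap, although HBG and Model had overlapped before it, and the log2 difference between Model and Control was -0.65 in place of -0.97. The share of all genes separated in the corrected ratio was not counted. Nor was the share whose uncorrected ratio to Tbx4 was lower in all 8 libraries together.

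The other pair of neighbours showed a smaller difference in the same direction. Tbx3 over Tbx5 ranged over 2.32 to 3.66 (Control), 1.84 to 2.27 (Model) and 1.41 to 2.94 (HBG), so Model lay below Control and HBG overlapped both. Of all genes, 9.65% had a ratio to Tbx5 that was lower without overlap in Model. Between the paralogues, the ratio of Tbx2 to Tbx3 was 1.84 to 2.11 in Control and 1.19 to 1.73 in Model, which did not overlap (0.746% of all genes were lower against Tbx3 in this way), but after the GC and length correction the ranges of 1.51 to 1.79 and 1.44 to 1.78 did. The ratio of Tbx4 to Tbx5 was 1.56 ± 0.21 in Control, 1.52 ± 0.18 in Model and 1.53 ± 0.16 in HBG (SD, n = 4 each), with ranges that overlapped in all 3 groups.

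**Figure D3:**
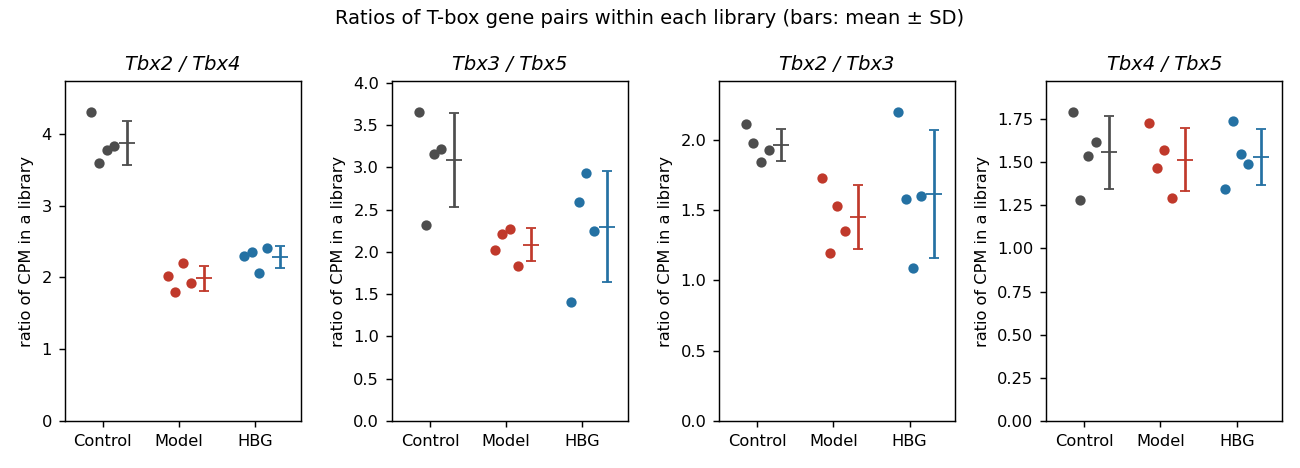
Each point is the ratio of 2 T-box genes in CPM within 1 library, and bars show the mean and SD of the 4 libraries of a group. Tbx2 over Tbx4 is 3.59 to 4.30 in Control and at most 2.41 in the 8 libraries of bleomycin-treated mice, while Tbx4 over Tbx5 overlaps in all groups.

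Foxf1 (ENSMUSG00000042812), the factor of capillary endothelium and mesenchyme, varied more between libraries than the other factors in Control and in HBG, with coefficients of variation of 21.3% and 39.1%. It had 357, 292, 336 and 212 CPM in Control, 146, 286, 247 and 305 in Model, and 106, 309, 217 and 270.4 in HBG. The groups overlapped, and Model 1 and HBG 1 were the low libraries. Its log2 fold change was -0.28 ± 0.31 in Model against Control (SE, adjusted p = 0.768 by edgeR), with an unadjusted 95% interval of -0.96 to 0.40, which includes the value seen for Tbx2. It was -0.10 without Model 1, -0.48 by limma-voom and -0.51 without Control 4, Model 2 and HBG 3 together. The capillary endothelial score was lowest in the same libraries, at -0.57 in Model 1 and -1.16 in HBG 1. Control 4 and HBG 3 went against this, with endothelial scores of 0.36 and 0.80 and Foxf1 at 212 and 217 CPM. The summed level of the 16 endothelial markers was 2896 to 4352 (Control), 2426 to 6011 (Model) and 1577 to 6311 CPM (HBG), and the part of endothelial content in Foxf1 was not tested. Fendrr, the noncoding RNA transcribed away from Foxf1, had 133 ± 9.83 CPM in Control, 125 ± 39.5 in Model and 107 ± 29.1 in HBG (log2 fold change -0.08 in Model, edgeR adjusted p = 0.921).

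The epithelial factors Nkx2-1, Foxa1 and Foxa2 all had lower means in Model, and 2 of them varied together from library to library. For that reason the 250 bases before an annotated start are shown for each, 5′ to 3′ on the strand of the gene, from RefSeq on GRCm38.p6. RefSeq start windows were used for 4 of the 9 members, Tbx4 being the other, which does not show that the remaining members lack one. Capitals mark matches, on either strand, to 6 motifs: a forkhead core, TGTTTAC; an NKX2-1 core, CAAGTG; a T-box core, AGGTGTGA; the TATA box, TATAAA; the CCAAT box; and the GC box, GGGCGG. No matches overlap in these windows.
Nkx2-1, chr12:56536909-56537158, minus strand: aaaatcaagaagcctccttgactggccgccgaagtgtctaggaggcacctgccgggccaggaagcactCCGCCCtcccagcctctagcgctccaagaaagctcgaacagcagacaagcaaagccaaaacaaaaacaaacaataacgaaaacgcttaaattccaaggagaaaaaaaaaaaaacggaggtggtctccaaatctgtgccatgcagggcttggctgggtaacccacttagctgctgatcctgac
Foxa1, chr12:57546112-57546361, minus strand: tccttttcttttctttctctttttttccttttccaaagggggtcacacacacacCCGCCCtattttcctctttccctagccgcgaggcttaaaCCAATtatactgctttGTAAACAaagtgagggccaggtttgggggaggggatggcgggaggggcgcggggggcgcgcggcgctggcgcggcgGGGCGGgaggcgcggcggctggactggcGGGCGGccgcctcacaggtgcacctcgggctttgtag
Foxa2, chr2:148045949-148046198, minus strand, the middle one of 3 annotated starts: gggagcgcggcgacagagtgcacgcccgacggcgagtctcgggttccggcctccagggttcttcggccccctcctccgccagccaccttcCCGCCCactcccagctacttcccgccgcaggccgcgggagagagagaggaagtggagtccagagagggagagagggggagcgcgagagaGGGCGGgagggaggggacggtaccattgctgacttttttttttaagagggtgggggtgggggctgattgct
The Foxa1 window holds 3 GC boxes, 1 CCAAT and 1 forkhead core, the Nkx2-1 window 1 GC box and the Foxa2 window 2 GC boxes. Over 32851 start windows of the same length, 32.7% hold a GC box, 33.8% a CCAAT, 12.4% the TATA box, 11.6% the NKX2-1 core, 3.17% the forkhead core and 1.12% the T-box core. The printed windows are 50.8% (Nkx2-1), 62.0% (Foxa1) and 67.2% (Foxa2) G and C. Of the Foxa2 windows not printed, the most upstream holds 1 CCAAT and 0 GC boxes at 50.8% G and C. The most downstream holds 1 TATA box and 1 GC box at 54.4%. A match is a description of letters and not a binding site.

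Nkx2-1 (ENSMUSG00000001496) separated the bleomycin-treated mice from Control without exception. It had 265, 212.5, 240.3 and 212.0 CPM in Control, 195.0, 93.2, 179 and 158 in Model, and 139, 156, 114 and 174 in HBG. All 8 Model and HBG libraries were below the lowest Control library, which held for 1.9% of all genes tested. The log2 fold change was -0.57 ± 0.20 in Model (SE, adjusted p = 0.312 by edgeR) and -0.68 ± 0.20 in HBG (SE, adjusted p = 0.392 by edgeR), neither past the threshold. After the GC and length correction the Model value was -0.59. Model 2, at 93.2 CPM, was the lowest of the 12 libraries.

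Foxa1 (ENSMUSG00000035451) and Foxa2 (ENSMUSG00000037025) overlapped between the groups. Foxa1 was at 60.8, 76.7, 71.2 and 67.2 CPM in Control, 39.1, 36.3, 39.8 and 62.1 in Model, and 66.3, 44.3, 33.1 and 63.2 in HBG. In Model, 3 libraries were well below Control and Model 4 lay just inside the Control range. Model 4, which was also highest for Tbx4 and Tbx5, was the Model library whose summed level of 15 macrophage markers (647 CPM) lay within the Control range of 603 to 705 CPM, and the part of inflammatory cells in these values was not tested. Its log2 fold change was -0.64 ± 0.22 (SE, adjusted p = 0.302 by edgeR and 0.0200 by limma-voom). Foxa2 had 47.5, 35.5, 44.9 and 42.9 CPM in Control, 42.8, 18.4, 37.7 and 28.9 in Model, and 37.1, 33.7, 27.5 and 38.5 in HBG. Model 2 and Model 4 were below all Control libraries, and the log2 fold change was -0.42 ± 0.22 (SE, adjusted p = 0.498 by edgeR). Without Model 2 it was -0.23. The ratio of Foxa2 to Nkx2-1 within a library was 0.167 to 0.202 in Control and 0.217 to 0.267 in HBG, which did not overlap, but 52.1% of all genes had a ratio to Nkx2-1 that was higher in HBG in this way. Model, at 0.183 to 0.219, overlapped both, and after the GC and length correction it no longer overlapped HBG (0.188 to 0.218 against 0.2196 to 0.2697). How many of all genes separate in that corrected ratio was not counted.

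General epithelial markers did not share the lower means. Of 12 pan-epithelial markers, 8 had higher and 4 lower means in Model, none passed the test, and the median log2 fold change was 0.07. Their summed level was 1799 to 2279 (Control), 1615 to 2480 (Model) and 1179.5 to 2986 CPM (HBG). In a measure added after the data were seen, log2 CPM minus the mean log2 CPM of these markers in the same library, Nkx2-1 stood at 0.85 to 1.49 in Control and 0.21 to 0.67 in Model, and Foxa1 at -0.63 to -0.39 and -1.69 to -0.68. Neither overlapped between Model and Control, against 3.99% of all genes lower in this way. The measure also moves with the markers it subtracts, and Foxa1 in CPM alone overlapped Control. In HBG, Nkx2-1 overlapped Control (-0.14 to 1.08) and Foxa1 did not (-1.20 to -0.70), against 1.12% of all genes. Foxa2 overlapped in both comparisons.

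Known epithelial targets of these factors went in both directions. Of 13 surfactant and secretory genes, 10 had higher and 3 lower means in Model, with a median log2 fold change of 0.18 against 0.01 over all genes, and 0 passed in either direction. Scgb1a1 had 48159 ± 8640 CPM in Control against 26446 ± 7023 in Model (SD, n = 4 each, edgeR adjusted p = 0.361). Every Model library was below every Control library, against 4.51% of all genes lower in this way. Scgb1a1 was named for having the smallest p-value of the list, a choice that favours separated genes. Cldn18, a claudin of the alveolar epithelium, had 631 ± 90.4 CPM in Control against 867 ± 257 in Model (edgeR adjusted p = 0.383).

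**Figure D4:**
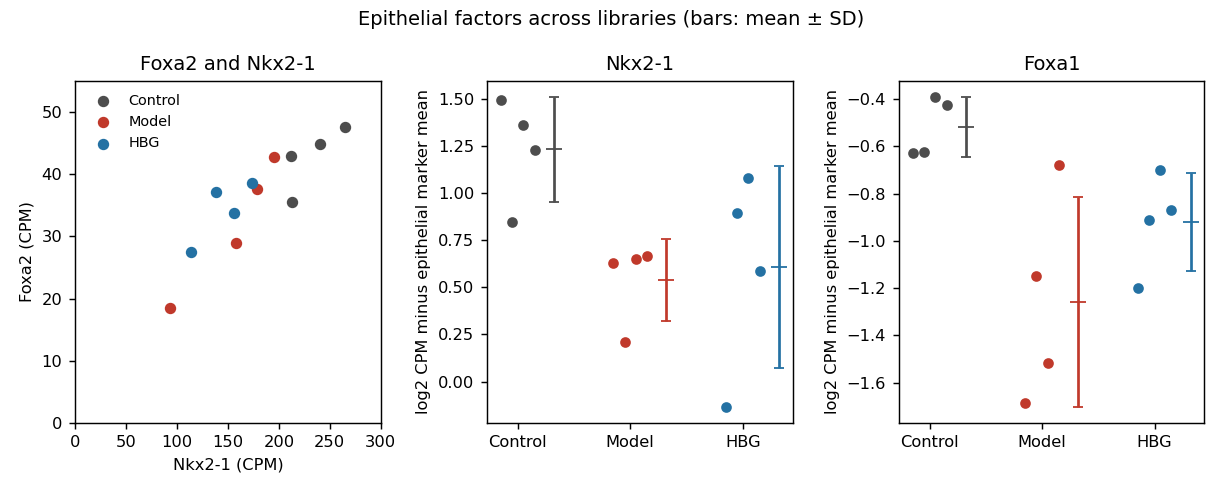
The left panel plots Foxa2 against Nkx2-1 in CPM for the 12 libraries, and the other panels give log2 CPM of Nkx2-1 and Foxa1 minus the mean of 12 pan-epithelial markers in the same library, with mean and SD bars. Nkx2-1 is 0.85 or above in Control and 0.67 or below in Model, and Model 2 is lowest for both genes of the left panel.

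Gata6 (ENSMUSG00000005836) was the most even of the 9 factors in HBG, with a coefficient of variation of 6.34%. It had 31.4, 29.5, 32.9 and 39.3 CPM in Control, 43.2, 33.9, 36.8 and 31.5 in Model, and 32.7, 32.9, 37.4 and 34.3 in HBG. The groups overlapped, with Model 1 the highest library and Control 2 the lowest. The log2 fold change in Model was 0.13 ± 0.12 (SE, adjusted p = 0.714 by edgeR), with an unadjusted 95% interval of -0.13 to 0.38. Without Model 1 it was 0.029, and without Control 4 it was 0.21. Its counts were not whole in 10 libraries, and the antisense gene Gata6os had 3.69 ± 0.70 CPM in Control and 3.08 ± 0.38 in Model.

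**Figure D5:**
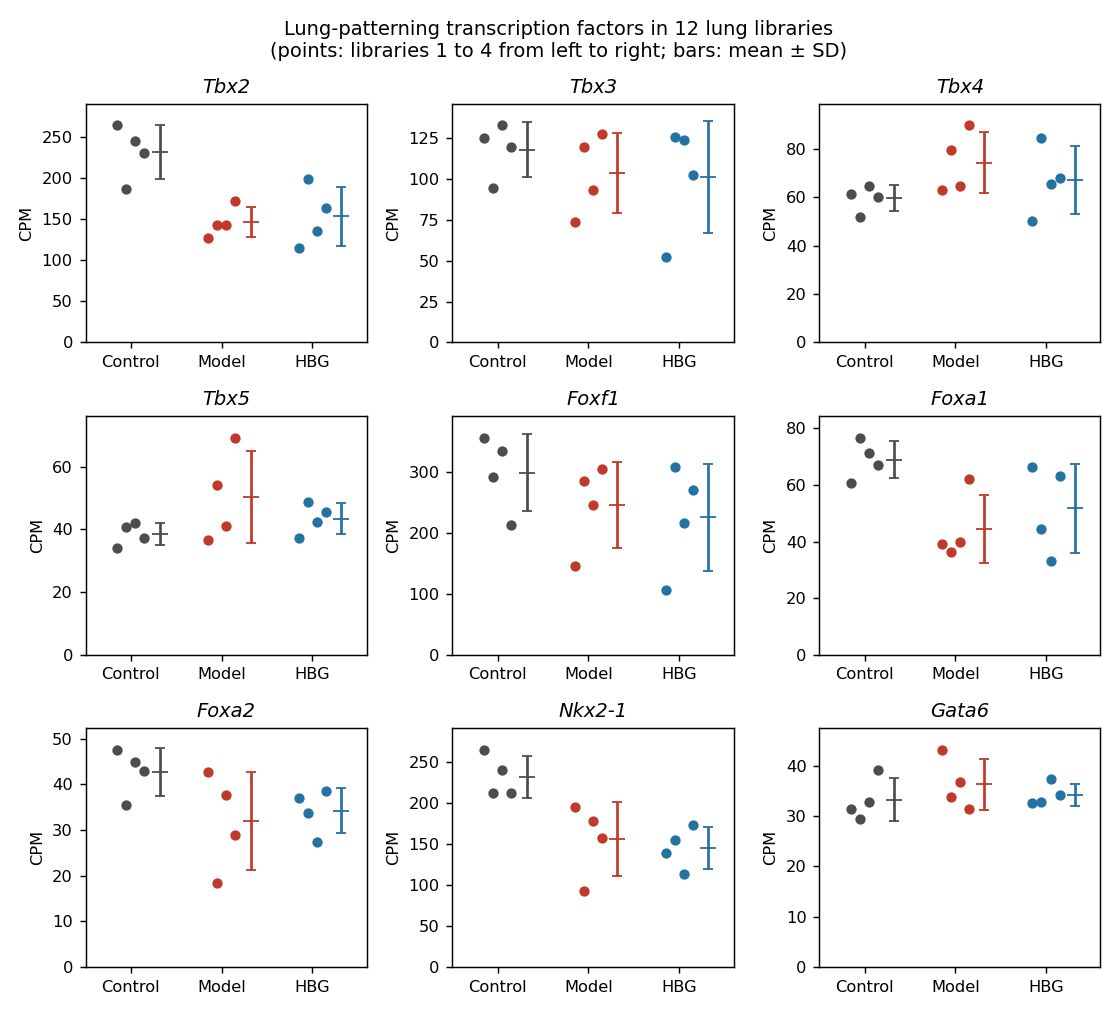
CPM of each factor in every library (points, libraries 1 to 4 from left to right) with the mean and SD of each group of 4, on axes that start at 0. The 8 Model and HBG points of Nkx2-1 lie at or below 195.0 CPM and the Control points at or above 212.0, while Gata6 and Tbx3 overlap in all groups.

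The comparison of HBG with Model asked what the granules added to bleomycin changed. The libraries of the 2 groups overlapped for all 9 factors, where 1.13% of all genes did not overlap. No member passed the threshold by edgeR, DESeq2 or limma-voom (0.0%, 0.00876% and 0.0% of all genes), and 0 had an unadjusted edgeR p under 0.05 (2.43%). The largest value was that of Foxa1, a log2 fold change of 0.22 ± 0.22 (SE) with an unadjusted 95% interval of -0.26 to 0.71. Tbx2 was at 153 ± 36.3 CPM in HBG and 146 ± 18.6 in Model, a log2 fold change of 0.06 with an interval of -0.30 to 0.43. Nkx2-1 was at 145 ± 25.4 and 156 ± 44.7 CPM, a log2 fold change of -0.10 with an interval of -0.55 to 0.34. The interval of Foxf1, -0.80 to 0.55, was the widest, and that of Gata6, -0.34 to 0.17, the narrowest. The upper bound for Foxa1 was above the size of its difference between Model and Control (0.64), while those for Tbx2 and Nkx2-1 were below theirs (0.66 and 0.57). Those 2 differences have wide unadjusted 95% intervals themselves, -1.03 to -0.29 for Tbx2 and -1.02 to -0.13 for Nkx2-1. The bounds therefore do not decide whether either gene returned to its Control level. Model is in both comparisons. A p above the threshold does not show that the groups were alike.

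Pairs of factors were followed across the 12 libraries as log2 CPM, for 8 pairs picked by family, genomic neighbourhood or cell type. Deviations from group means were taken so that differences between groups did not enter. The share of all gene pairs with an r as high as those below was not counted. The p-values therefore do not show that a tie is particular to these factors. Foxa2 and Nkx2-1 moved together most closely, with r = 0.94 within groups (exact permutation p within groups = 0.00116, adjusted over the 8 pairs = 0.00463). Their pooled values were r = 0.90 (permutation p = 9e-05, adjusted p = 0.00072) and rho = 0.85 (permutation p = 0.00092, adjusted p = 0.00368). Without Model 2 and HBG 3 the pooled r was 0.75 (permutation adjusted p = 0.0511). Both genes were lowest in Model 2 and HBG 3, which also had the lowest pan-epithelial scores, -0.29 and -0.87, and the part of epithelial content was not tested.

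Tbx2 and Tbx4 were tied within groups and not across them. Within groups r was 0.90 (exact permutation p = 0.000723, adjusted p = 0.00463), while the pooled values were r = 0.09 (permutation p = 0.788, adjusted p = 0.788) and rho = 0.04 (permutation p = 0.904, adjusted p = 0.904). Without Control 1 and HBG 1 the pooled r was -0.09. Since the libraries split into Control and bleomycin by the ratio of these genes, the pooled value mixes separate clusters. Tbx4 and Tbx5 had r = 0.76 within groups (exact permutation adjusted p = 0.0203), pooled r = 0.82 (permutation p = 0.00053, adjusted p = 0.00212) and rho = 0.87 (permutation p = 0.00059, adjusted p = 0.00368), and 0.69 without Model 4 and HBG 2 (permutation adjusted p = 0.0819). Tbx3 and Tbx5 had r = 0.64 within groups (exact permutation adjusted p = 0.0303) and 0.41 pooled (permutation p = 0.178, adjusted p = 0.204; rho = 0.42, permutation p = 0.176, adjusted p = 0.22), and 0.22 without Model 1 and HBG 1.

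Foxf1 and Tbx4 had r = 0.81 within groups (exact permutation adjusted p = 0.0211) and 0.50 pooled (permutation p = 0.0911, adjusted p = 0.133; rho = 0.41, permutation p = 0.193, adjusted p = 0.22), and 0.20 without Model 1 and HBG 1. Tbx2 and Tbx3 had r = 0.77 within groups (exact permutation adjusted p = 0.0216), 0.67 pooled (permutation p = 0.0114, adjusted p = 0.0303; rho = 0.70, permutation p = 0.0141, adjusted p = 0.0377) and 0.54 without Control 1 and HBG 1. Foxa1 and Foxa2, the epithelial paralogues, did not pass, with r = 0.24 within groups (exact permutation adjusted p = 0.511) and 0.52 pooled (permutation p = 0.0736, adjusted p = 0.133; rho = 0.45, permutation p = 0.149, adjusted p = 0.22), and r was 0.04 without Model 2 and HBG 3. Foxf1 and Gata6 ran opposite, with r = -0.49 within groups (exact permutation adjusted p = 0.0959) and -0.50 pooled (permutation p = 0.0998, adjusted p = 0.133; rho = -0.63, permutation p = 0.0328, adjusted p = 0.0655), and -0.84 without Model 1 and HBG 1 (permutation adjusted p = 0.0211).

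Of 14175 other named genes with a mean of at least 1 CPM, those most like each factor over the 12 libraries are given with Pearson's r as a description. Tbx3 was closest to Tspan7 (r = 0.99) and Tmem100 (r = 0.98), membrane proteins strongly expressed in lung endothelium. Foxf1 was closest to Nkd1, an inhibitor of Wnt signalling (r = 0.94), and Lyve1, a hyaluronan receptor of lymphatic and some blood endothelium (r = 0.935). Tbx2 was nearest to Aldh2, a mitochondrial aldehyde dehydrogenase (r = 0.95), and Sox18, an endothelial transcription factor (r = 0.94). For the mesenchymal activators these were Pknox2 (r = 0.94) and Peli2 (r = 0.91) for Tbx4, and Pxk (r = 0.93) and R3hdm2 (r = 0.91) for Tbx5. Nkx2-1 was nearest to Mrfap1 (r = 0.97) and Ier5l (r = 0.96), Foxa1 to Bola3 (r = 0.95) and the actin bundler Espn (r = 0.95), Foxa2 to Mrps18c (r = 0.95) and Lurap1l (r = 0.94), and Gata6 to the inhibitor of DNA binding Id2 (r = 0.92) and Exo5 (r = 0.92). No epithelial marker of the fixed lists was among the genes named for the 3 epithelial factors. So few of the 14175 genes were kept per factor that this absence does not show whether the factors follow epithelial markers. The r values also include differences between the groups.

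Other genes of lung patterning were read from 2 further lists. Of 25 tested ligands, receptors and effectors of the Fgf, hedgehog, Bmp, Wnt and retinoid pathways, 14 had higher and 11 lower means in Model. The median log2 fold change was 0.03, and 0 passed in either direction. An unadjusted edgeR p under 0.05 was found for 5, against 11.7% of all genes. Gli1, a target and effector of hedgehog signalling, had 8.02 ± 0.59 CPM in Control against 12.2 ± 3.16 in Model, and the effector Gli2 had 4.68 ± 0.67 against 6.604 ± 0.81 (SD, n = 4 each). Neither overlapped between the groups (edgeR adjusted p = 0.281 and 0.272), where 8.71% of all genes did not overlap. Both were named for having the smallest p-values of the list. In HBG, Gli1 had 8.92 ± 1.94 CPM. The related factor Gli3 had 6.05 ± 0.57 CPM in HBG against 7.83 ± 0.36 in Model (edgeR adjusted p = 0.9999). These did not overlap, as was so for 1.13% of all genes in that comparison, and Gli3 had the smallest p-value of the list there. Of 35 other tested developmental transcription factors, 26 had lower and 9 higher means in Model. Their median log2 fold change was -0.28, the same as for the 9 members to 2 decimals. The threshold was passed by 0, and 7 had an unadjusted edgeR p under 0.05, against 11.7% of all genes. Hoxa5, a homeobox factor of the lung mesenchyme, had 34.6 ± 4.10 CPM in Control against 17.4 ± 4.86 in Model (edgeR adjusted p = 0.141). Its libraries did not overlap, against 4.51% of all genes lower in this way. Hoxa5 was named for having the smallest p-value of the list, a choice that favours separated genes. Sox18 had 104 ± 36.0 against 48.7 ± 9.42 CPM (edgeR adjusted p = 0.181). In HBG against Model the smallest p-values of that list were those of Sox17, at 27.5 ± 6.66 and 34.0 ± 4.55 CPM, and Nfia, at 64.6 ± 5.44 and 72.5 ± 8.81 CPM. The median of the signals in that comparison was -0.07 with 8 higher and 17 lower means, while the transcription factors had 17 higher and 18 lower.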

How the data were processed

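Per the labels' protocols, libraries were made from poly-T selected RNA with a stranded kit and read as pairs of 150 bases. The submitters' processing notes name STAR 2.7.9a and HISAT2, the counters HTSeq and featureCounts 2.0.1, DESeq2 1.34.0, the trimmers cutadapt, fastp and Trimmomatic 0.39, FastQC 0.11.9 and the builds mm10 and GRCm39, with no role or order. Which of them made the counts: not given in the sources used here. Coordinates are therefore printed only for the RefSeq start windows, on GRCm38.p6. The deposited values were read as estimated counts, because 10.04% to 15.1% of a library's values were not whole. The deposited group means, a signal column each, were not used. The deposited gene length gave levels per kilobase.

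Counts were rounded and tested with edgeR 4.0.16 (R 4.3.3, limma 3.58.1): TMM factors, filterByExpr (17827 genes kept), quasi-likelihood F test on all 12 libraries by group, Benjamini-Hochberg adjustment over all genes, threshold 0.05. CPM use TMM-scaled totals, and log2 CPM a prior count of 2. GC content came from GENCODE M21 transcripts for 98.1% of tested genes, and the correction fits smooth curves on GC and length per library (mgcv 1.9.3). Correlation p-values used 100000 resamples or, within groups, every rearrangement. In counts simulated for Model against Control (17605 genes), 43 of 99 changes of 2-fold and 88 of 100 of 4-fold were called, with 7 false calls. Alternatives were DESeq2 1.42.0, limma-voom, RLE and upper-quartile factors, other filters, 2-group fits, a replicate block, the GC correction and libraries left out. Named genes are the 9 members, the 2 genes most like each, and the 2 of smallest p per list in Model against Control and in HBG against Model, and Tbx3os1 was added after its values were seen. The members and lists were chosen with earlier results of these data known.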

Additional observations from a re-analysis of the deposited data

How the results depend on the processing

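Over 22 alternatives, all 9 members kept the direction of their Model against Control value. It stayed on the same side of the threshold in 195 cases and passed it in 3: Tbx2 with DESeq2 and limma-voom, Foxa1 with limma-voom, so members called were 1 and 2 there against 0. Genes called in that comparison were 62 with edgeR, 419 with DESeq2, 1079 with limma-voom, 25 with the replicate block and 23 to 100 with 1 library left out. For HBG against Control they were 27, 198, 101, 17 and 16 to 53, and for HBG against Model 0 and, with DESeq2, 3. The replicate number is not said to pair libraries. Same-numbered libraries correlated from -0.357 to 0.482 in their deviations and differently numbered ones from -0.491 to 0.532, which does not decide whether libraries were paired. The replicate block called 0 members in each comparison. In HBG against Model, where no member passed the threshold, limma-voom turned the sign of Tbx3 (0.17), Tbx4 (0.075), Tbx5 (0.083), Foxf1 (0.19) and Foxa2 (-0.017), and the GC and length correction that of Tbx3 (0.011). Leaving out 1 library turned Tbx2 (-0.086 to 0.18), Tbx3 (-0.17 to 0.18), Foxf1 (-0.32 to 0.11), Foxa2 (-0.093 to 0.27), Nkx2-1 (-0.29 to 0.018) and Gata6 (-0.15 to 0.0055), and in HBG against Control Gata6 (-0.019 to 0.12). The cause was not tested. Without division by length, 4 of the 9 members kept their place in the order of levels, and with 1 library left out 5 to 9 did. Of the pair correlations, those of Tbx2 with Tbx4 (0.90), Tbx3 with Tbx5 (0.64) and Foxf1 with Tbx4 (0.81) passed only within groups. Without the 2 libraries farthest from the median, Tbx2 with Tbx3 (0.54), Tbx4 with Tbx5 (0.69) and Foxa2 with Nkx2-1 (0.75) no longer passed, Tbx2 with Tbx4 was -0.094 and Foxf1 with Gata6 passed at -0.84. The GC and length correction moved the log2 difference of the Tbx2 to Tbx4 ratio to -0.65 in Model and -0.44 in HBG.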

Other observations

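Of 10 type I alveolar markers, 9 had higher means in Model, with a median log2 fold change of 0.23 and 0 past the edgeR threshold. The chloride channel gene Clic5 had 719 ± 113 CPM in Control against 1008 ± 144 in Model (SD, n = 4 each), without overlap. Of all genes 8.71% did not overlap in this comparison. The genes named in this paragraph were picked for the smallest p-values of their lists, a choice that favours separated genes. Podoplanin (Pdpn) had 109.99 ± 13.3 against 164 ± 50.7 CPM. Of 16 fibroblast markers, 11 had higher means, and Slit2, a guidance ligand, had 42.7 ± 7.03 against 61.9 ± 9.37 CPM, again without overlap. The fibroblast esterase gene Ces1d went the other way, at 835 ± 117 against 625 ± 113 CPM. In HBG, Slit2 was at 46.5 ± 8.06 CPM. Smooth muscle and pericyte markers had 6 higher and 8 lower means, with a median of -0.09, and capillary endothelial markers 7 and 9, with a median of -0.03. Of 18 immediate early genes, all 18 had lower means in Model, with a median log2 fold change of -1.04, and Klf2 had the smallest adjusted p of the lists read here, at 244 ± 68.6 CPM in Control against 107 ± 18.4 in Model (edgeR adjusted p = 0.0791). The score of these genes was 1.85 in Control 2 and 0.58 in Control 3, but -0.06 in Control 1 and -0.33 in Control 4, both within the Model range of -0.54 to -0.05. Of 15 macrophage markers, 14 had higher means, with a median log2 fold change of 1.11. Their summed level was 603 to 705 CPM in Control and 3657, 1355 and 2356 in Model 1 to 3, while Model 4, at 647, lay within the Control range.

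A screen by Dixon's criterion for single libraries far from the other 3 of their group, over 27 combinations of a member and a group, flagged 0. That count does not show that no library stood apart. Foxa1 was at 62.1 CPM in Model 4, against 36.3 to 39.8 CPM in Model 1 to 3. The scale on which the values were screened is not stated. In CPM, the gap between Model 4 and the next library, as a share of the range of the group, passes the limit of the criterion. The count of 0 therefore does not carry over to CPM. Among neighbouring noncoding RNAs, 9030622O22Rik, next to Foxa2, had 7.68 ± 0.41 CPM in Control, 6.52 ± 0.83 in Model and 6.17 ± 0.41 in HBG.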
